A study of Mus musculus with 8 samples.

Results

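Ductal cells were the 654 cells that the deposited annotation names as such, of 6959 cells in all from mouse islets. They formed 1 of 12 annotated classes and lay in a single cluster of 17, so no subdivision by deposited cluster was possible. The islets came from wild type mice, 6 to 12 weeks old at the start, that had been given vehicle or FAKi, the focal adhesion kinase inhibitor PF562271, by oral gavage at 50 mg/kg, 2 times a day for 3 weeks. Islets were collected 10 days after the last dose, and those of 5 mice were pooled into 1 droplet-based library per condition. The labels do not give the strain of these mice. Since the 8 deposited samples are taken to be 4 lanes from 1 library per condition, the conditions had no replicates, no difference between them had a replicate check, and intervals given here are 95% intervals that cover counting error only.

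The vehicle library held 498 ductal cells of 3776 (13.2%, interval 12.1 to 14.3) and the FAKi library 156 of 3183 (4.90%, interval 4.18 to 5.71). The pancreas had been digested with collagenase and the islets separated on a density gradient and handpicked to remove exocrine tissue, so these shares depend on how much duct stayed with the picked islets, and their difference cannot be told apart from that step. Summed over ductal cells the UMIs (unique molecular identifiers, 1 per captured transcript) came to 6247503 for vehicle and 2172064 for FAKi. The median ductal cell had 9546 UMIs under vehicle and 9661.5 under FAKi. Median mitochondrial shares were 4.94% and 4.67%. Levels are given as CPM, the UMIs of a gene scaled to the total UMIs of the cells summed. A total of 4 barcode sequences occurred in both libraries, and 0 of them belonged to ductal cells.

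Pancreatic ducts carry digestive enzymes from the acini to the gut. Their cells add water and bicarbonate through the chloride channel CFTR and carbonic anhydrases, are held together by claudin junctions and bear a primary cilium. In the embryo, duct and endocrine cells arise from a common epithelium that expresses SOX9 and PDX1, and endocrine cells leave it after a pulse of NEUROG3. Adult duct cells keep several of these factors, and they respond to injury with chemokines and other products of the transcription factor NF-kB.

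The label was first set against the 6 duct markers Spp1, Krt19, Sox9, Krt7, Muc1 and Cftr, each of which had its highest level of the 12 classes in ductal cells, in both libraries. Spp1, the secreted phosphoprotein osteopontin, stood at 10644 CPM under vehicle and 11802 CPM under FAKi. The next class reached 595 CPM under vehicle (T cells) and 386 CPM under FAKi (macrophages). The keratins Krt19 and Krt7 stood at 1503 and 406 CPM under vehicle and at 1062 and 288 CPM under FAKi. Sox9, the transcription factor of duct identity, stood at 552 and 720 CPM, and the mucin gene Muc1 at 235 and 199 CPM. Cftr, the channel behind ductal fluid secretion, was the lowest of the set, with 21.4 CPM and 46.0 CPM. At least 3 of the 6 markers were found under vehicle in 478 of 498 cells (96.0%) and under FAKi in 150 of 156 (96.2%). The annotated classes had been drawn on these same genes, so these levels describe the class and do not test it.

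**Figure D1:**
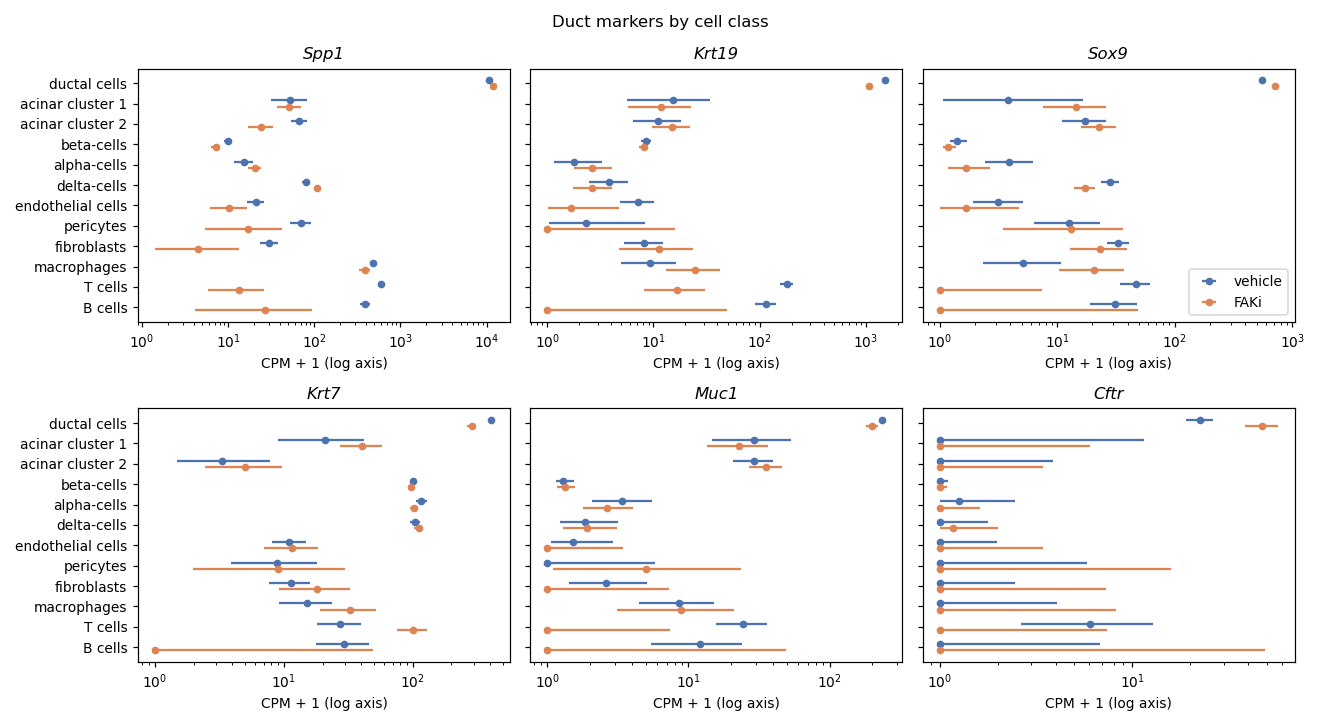
Levels of the 6 duct markers by annotated class and library, in CPM. Ductal cells held the highest level of each marker in both libraries, from 21.4 CPM for Cftr to 10644 CPM for Spp1 under vehicle.

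The 15 genes with the highest ratio of ductal cells over all other cells included, after Spp1, Krt17, Wfdc18, Anxa13, Tstd1, Sfn, Onecut1, Ces1d, Apoc1, Wfdc2, Krt19, Alb, Ptgds and Sox9. Krt17, a keratin of stressed and basal epithelia, stood at 684 CPM under vehicle and 549 CPM under FAKi and was detected in 62.4% and 59.6% of the cells. Wfdc18 and Wfdc2, which encode small secreted proteins with whey acidic protein domains, stood at 348 and 260 CPM under vehicle and at 315 and 267 CPM under FAKi. Onecut1, the HNF6 factor that acts upstream in duct development, stood at 148 and 231 CPM. Transcripts better known from liver were among the 15: Alb, which encodes albumin, stood at 133 and 196 CPM, Apoc1, an apolipoprotein gene, at 146 and 358 CPM, and the carboxylesterase gene Ces1d at 413 and 385 CPM.

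The general epithelial genes and those of the cilium were at similar levels in both libraries. Krt8 stood at 3249 and 2741 CPM and Krt18 at 3220 and 2827 CPM, under vehicle and FAKi in that order. Epcam, an adhesion molecule of simple epithelia, stood at 1664 and 1353 CPM, and Cldn3 at 1232 and 1031 CPM. Clu, which encodes the secreted chaperone clusterin, was among the most abundant transcripts with 7062 and 6700 CPM. Among the genes of polycystic disease, Bicc1 stood at 976 and 1046 CPM, Pkhd1 at 178 and 212 CPM and Pkd2 at 182 and 148 CPM. Foxj1, a factor of motile cilia, was found in 30.1% of vehicle and 34.6% of FAKi ductal cells at 42.3 and 49.3 CPM, and Rsph1, a gene of ciliary axonemes, in 20.9% and 19.9% at 25.6 and 19.8 CPM, against 2.73 and 12.0 CPM in endothelial and immune cells. Tmem212, another gene of ciliated cells, was at 0 in both libraries, in ductal as in endothelial and immune cells.

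Markers of cell types other than endocrine, acinar and mesothelial cells were low. The beta-cell markers summed to 24308 CPM under vehicle and 53934 CPM under FAKi, above the 6 duct markers at 13361 and 14117 CPM. In endothelial and immune cells the beta-cell markers summed to 65244 and 166832 CPM. Alpha-cell markers gave 3314 and 1850 CPM, acinar markers 2608 and 5249, delta-cell markers 1907 and 1090 and pancreatic polypeptide markers 2414 and 784 CPM. These are taken up below. The 6 endothelial markers summed to 41.6 CPM under vehicle and 1.84 CPM under FAKi, the latter with 4 of the 6 at 0, against 7265 and 7240 CPM in endothelial and immune cells. The 6 macrophage markers summed to 54.7 and 39.6 CPM with none at 0, the 6 T cell markers to 3.36 and 1.84 CPM, and the 7 stromal markers to 75.2 and 51.6 CPM. B cell, tuft, ciliated, Schwann and erythroid markers summed to between 2.30 and 69.1 CPM, and the defining genes Pou2f3 of tuft cells and Sox10 of Schwann cells were at 0. The ciliated list, at 67.9 and 69.1 CPM, exceeded endothelial and immune cells (3.79 and 12.4 CPM) in both libraries. The tuft list, at 51.5 and 34.5 CPM, exceeded them under vehicle only (16.5 and 55.2 CPM). Of the mesothelial markers, which share Krt19 with ducts, Msln stood at 186 and 106 CPM and Upk3b at 23.7 and 17.5 CPM, while Upk1b stood at 0.64 and 7.83 CPM, Wt1 at 2.72 and 2.30 CPM and Lrrn4 at 0.48 and 1.38 CPM. A few cells stood apart within the class. A pair of vehicle cells held 244 and 133 UMIs of Muc2 and 866 and 556 UMIs of Tff3, both genes of intestinal goblet cells, with 0 UMIs of Spp1. In the FAKi library, 1 cell held 1627 UMIs of Gkn3 and 164 of Muc6, genes of gastric mucous glands, with 485 UMIs of Spp1.

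Endocrine and progenitor transcripts were read against the endothelial and immune cells of the same library (953 cells under vehicle, 361 under FAKi), called the background here, since free RNA in droplets gives every cell some UMIs of abundant genes. The median depth of those cells was 5186 and 4883 UMIs, below that of ductal cells. Ins2 and Ins1 encode insulin. Ins2 stood at 16469 CPM in ductal cells under vehicle and at 36697 CPM under FAKi, against 42982 and 110187 CPM in endothelial and immune cells, so it was lower in ductal cells in both libraries, with ratios of 0.38 and 0.33. The median ductal cell held 17 and 32.5 Ins2 UMIs, and the median endothelial or immune cell 14 and 27. The 50 vehicle and 16 FAKi ductal cells with the most Ins2 UMIs held 91.6% and 93.9% of all of them. In endothelial and immune cells, the 95 vehicle and 36 FAKi cells with the most held 95.6% and 96.7%, so the levels of both kinds of cell rest on few insulin-rich barcodes, and this holds for the ratios of Mafa too.

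The other hormones were concentrated in few cells, and several exceeded endothelial and immune cells. Ratios of ductal over endothelial and immune cells under vehicle and FAKi were 2.496 and 0.92 for Sst, 2.52 and 1.10 for Pyy, 1.70 and 1.95 for Ppy and 0.85 and 0.50 for Gcg. Of 9362 Sst UMIs (somatostatin) in vehicle ductal cells, the 50 cells with the most held 98.8%, and of 7734 Ppy UMIs (pancreatic polypeptide), a single vehicle cell held 7066. That cell, with 40560 UMIs in total and 5737 of Pyy, was called a doublet, as was the cell with the most Gcg UMIs (glucagon), 7661 of 20541. The 8 hormones with at least 20 UMIs therefore gave a median log2 ratio of FAKi over vehicle of 0.13 that ranged from -0.85 to 1.93 over the alternatives computed, and the direction of this list was not settled. Without called doublets it was 1.93.

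Neurog3, the factor that starts endocrine differentiation, gave 2 UMIs in ductal cells, in 2 vehicle cells that held 3042 and 1732 Sst UMIs, and 0 of 156 FAKi cells had a UMI. A count of 0 leaves room for 1.92% of FAKi cells with a UMI if the floor is set at 3 counts, and for 2.34% by the Clopper-Pearson interval, and either limits cells with a UMI, not cells that express the gene. Among factors downstream of it, Neurod1, Insm1 and Pax6 were lower in CPM in ductal than in endothelial and immune cells in both libraries, with ratios of 0.44, 0.58 and 0.50 under vehicle and 0.31, 0.32 and 0.35 under FAKi. Mafa, which activates the insulin gene in mature beta-cells, gave 0.40 and 0.18. Rfx3, a factor of ciliated and islet cells, was on the other side, with ratios of 1.70 (interval 1.22 to 2.38) and 1.51 (0.94 to 2.42), and was detected in 15.9% and 21.2% of ductal cells, against 5.14% and 8.31%. For Neurod1, Insm1 and Pax6, shares of cells with a UMI did not follow the CPM. Neurod1 was detected in 6.02% and 12.2% of ductal cells, against 3.46% and 8.59% of endothelial and immune cells, and Insm1 in 6.83% and 10.9%, against 3.78% and 8.03%. Pax6 was detected in 5.62% and 11.5%, against 4.72% and 10.5%. At 3500 UMIs per cell, Neurod1 was detected in 2.86% and 5.56% of ductal cells (background 1.46% and 6.07%), Insm1 in 2.86% and 2.08% (1.61% and 2.83%) and Pax6 in 3.30% and 6.25% (3.95% and 6.88%). Rfx3 was then detected in 4.40% and 6.94% (2.49% and 4.05%), and no order is read from the shares of these 4 genes. Over hormones and islet factors together, the median log2 ratio of ductal over endothelial and immune cells was -0.36 under vehicle and -1.40 under FAKi, but the vehicle value was 0.47 as a mean over cells and 0.16 in thinned cells, so its direction was not settled.

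Of other factors of the embryonic epithelium, Sox4 and Hhex were above the background in both libraries, and Pdx1 under vehicle. Sox4, a factor of progenitors, stood at 671 and 676 CPM and was detected in 93.2% and 94.2% of ductal cells, against 31.1% and 39.1% of endothelial and immune cells. Hhex, a homeobox gene known from foregut and delta-cells, stood at 347 and 413 CPM and was detected in 84.9% and 92.3% of ductal cells, against 23.4% and 22.4%. Pdx1, needed for pancreas formation and insulin transcription, was detected in 32.3% and 38.5% of ductal cells, against 2.83% and 9.14%. With cells thinned to 3500 UMIs, the shares were 80% and 81.9% for Sox4 (background 25.6% and 34.4%), 65.3% and 70.8% for Hhex (17.1% and 18.2%) and 10.5% and 9.03% for Pdx1 (1.32% and 5.67%). The FAKi intervals of Pdx1 overlap (4.89 to 14.9 and 3.13 to 9.33), and no order is read from that pair. The Pdx1 level was 37.9 CPM against 15.3 CPM under vehicle (ratio 2.48, interval 1.96 to 3.16), but 49.3 CPM against 52.6 CPM under FAKi (ratio 0.94, interval 0.72 to 1.21), although all Pdx1 UMIs of the endothelial and immune cells lay in 27 vehicle and 33 FAKi cells. Nkx6-1, a beta-cell factor, stood at 28.0 against 33.3 CPM under vehicle and 38.2 against 65.4 CPM under FAKi, but was detected in 15.3% and 16.7% of ductal cells, against 3.88% and 8.31% of endothelial and immune cells. In thinned cells these shares were 5.49% and 11.1%, against 3.22% and 5.26%, with intervals that overlap, and no order is read from them. Over the 14 islet factors with at least 20 UMIs, 1 was at least 1.5-fold higher in FAKi (Neurod1, with 56 and 44 UMIs) and 0 were lower, where 7.75% and 8.38% of all genes with that many UMIs were past this fold. Their median log2 ratio of FAKi over vehicle was 0.27, against 0.95 in endothelial and immune cells, where Neurod1 stood at 20.1 and 64.6 CPM.

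A pair of genes shared with beta-cells exceeded the background. Slc2a2, the glucose transporter GLUT2, stood at 232 and 226 CPM in ductal cells, against 38.2 and 86.0 CPM in endothelial and immune cells and 378 and 347 CPM in beta-cells, and was detected in 75.9% and 76.3% of ductal cells. Ttr, which encodes transthyretin, stood at 1518 and 1849 CPM in ductal cells, against 363 and 459 CPM, and was detected in 88.0% and 95.5% of ductal cells. Among surface markers used for progenitors, Tm4sf4 stood at 1458 and 1255 CPM, Cd24a at 470 and 471 CPM and Prom1, the CD133 antigen, at 147 and 140 CPM.

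**Figure D2:**
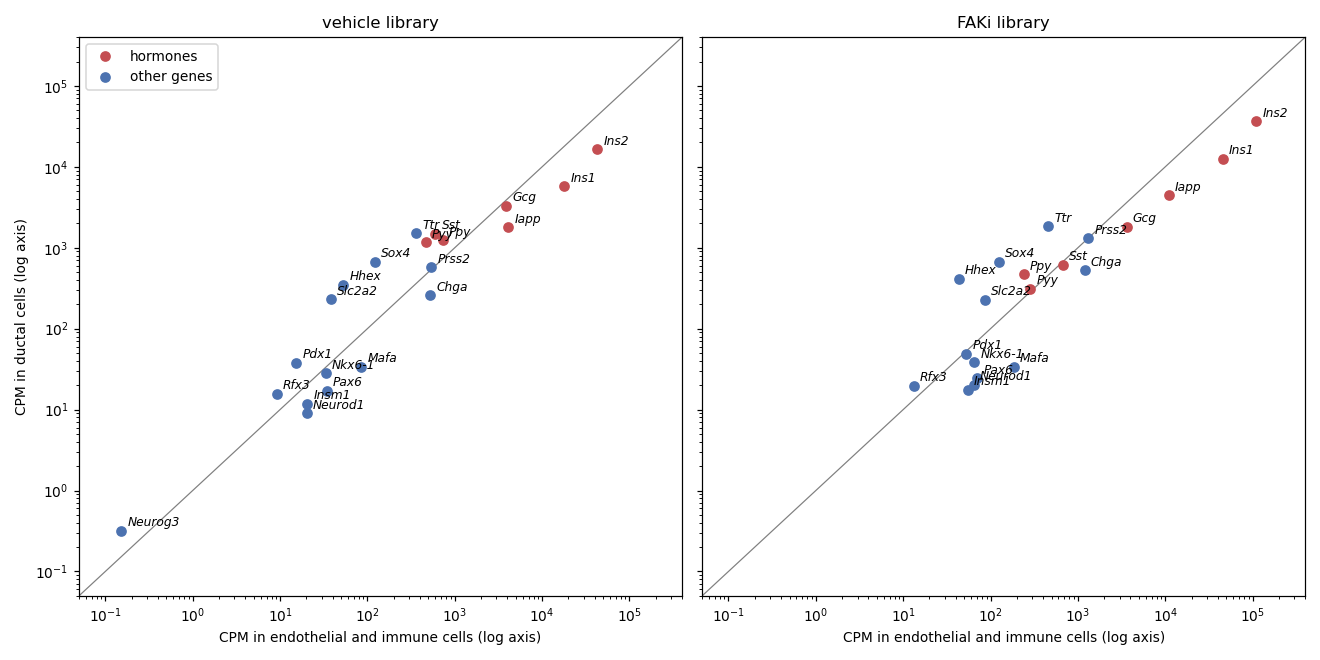
Hormones, islet factors and acinar genes in ductal cells beside endothelial and immune cells of the same library, in CPM. Sox4 and Hhex lay above the background in both libraries, while Ins1, Ins2 and Mafa lay below it.

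The acinar enzyme genes Prss2 and Ctrb1 were close to their level in endothelial and immune cells. Prss2, a trypsinogen gene, stood at 576 CPM under vehicle and 1308 CPM under FAKi in ductal cells, and at 537 and 1317 CPM in endothelial and immune cells. Ctrb1, which encodes chymotrypsinogen, stood at 912 and 1817 CPM against 761 and 1960 CPM. Of the 29 acinar genes with at least 20 UMIs in ductal cells, 22 were at least 1.5-fold higher and 2 at least 1.5-fold lower in the FAKi library, with a median log2 ratio of 0.99. Over all 12058 genes with that many UMIs, 934 (7.75%) were at least 1.5-fold higher and 1011 (8.38%) at least 1.5-fold lower, with a median of 0.01. The same acinar genes had a median of 1.49 in endothelial and immune cells, and the part of RNA from other cells in the ductal value was not tested. Try5 stood at 175 against 158 CPM under vehicle and 1557 against 494 CPM under FAKi, and Zg16 at 805 against 132 CPM and 259 against 313 CPM, and single cells held 39.6% and 42.3% of their ductal UMIs. Ctrc and Iapp were among the 10 genes with the highest ratio of FAKi over vehicle in ductal cells: Ctrc stood at 117 and 331 CPM, with 99.7 and 364 CPM in endothelial and immune cells, and Iapp, which encodes amylin, at 1795 and 4430 CPM, with 4114 and 11007 CPM.

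Most transcripts of ductal cells lay close together in the 2 libraries. Among the 8601 genes with at least 100 UMIs, 287 (3.34%) were at least 1.5-fold higher and 415 (4.83%) at least 1.5-fold lower under FAKi, and these were the genes ranked by their ratio. The counts of lists that follow are over genes with at least 20 UMIs and are read against the 7.75% and 8.38% given above. Ptk2, which encodes the inhibited kinase FAK itself, stood at 27.0 and 33.2 CPM (ratio 1.23, interval 0.92 to 1.62). Of 32 genes of focal adhesions and integrins with at least 20 UMIs, 0 were higher and 4 lower past 1.5-fold, with a median of -0.10. Those were Fyn, a Src family kinase (ratio 0.38, interval 0.13 to 0.88), Itgav (0.60), the scaffold gene Bcar1 (0.64) and Itga3 (0.67). The Hippo list had 1 of 26 higher and 2 lower, with Yap1 at a ratio of 1.00 and its target Ccn2 at 1.06. The Notch list had 1 of 20 higher and 3 lower, among them the target Hes1, which stood at 1012 and 640 CPM (ratio 0.63).

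**Figure D3:**
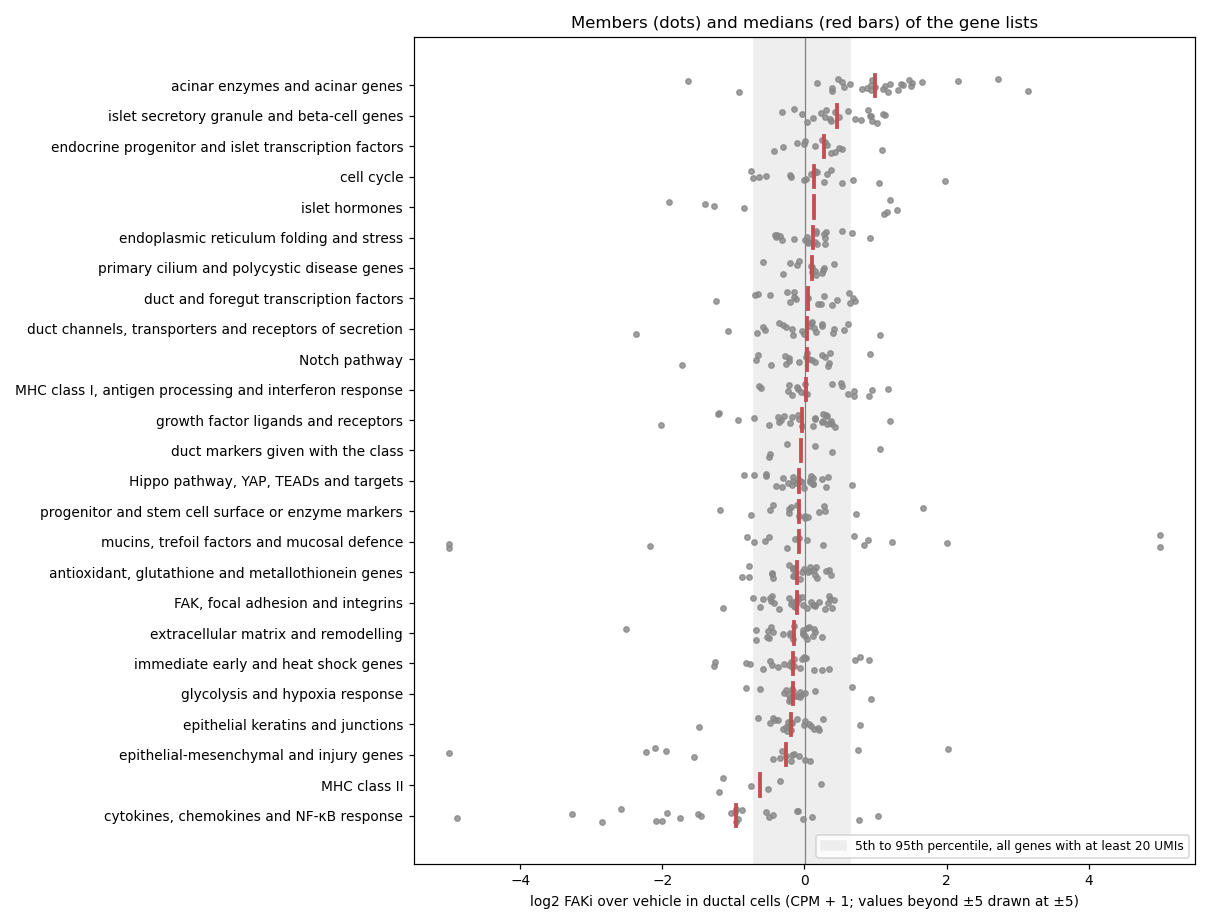
FAKi over vehicle in ductal cells for the genes of each list, on the log2 scale, with list medians. The cytokine, chemokine and NF-kB list had a median of -0.97, and the acinar list one of 0.99 that also appeared in endothelial and immune cells.

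The list that stood farthest below the rest was that of cytokines, chemokines and NF-kB response genes. Of its 32 genes, 25 had at least 20 UMIs, and 17 of these were at least 1.5-fold lower in the FAKi library and 2 higher. Their median log2 ratio was -0.97, against -0.32 for the same genes in endothelial and immune cells. Over the 27 list genes with at least 20 UMIs in endothelial and immune cells, the median there was -0.55, with 13 lower and 1 higher. A filter on summed UMIs keeps genes that were high in the vehicle library alone, so the 7 genes left out in ductal cells are not counted in either direction. The ductal median ranged from -1.10 to -0.80 over the alternatives computed.

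The neutrophil chemokines Cxcl2 and Cxcl1 illustrate it. Cxcl2 gave 1323 UMIs (212 CPM) under vehicle and 62 UMIs (28.5 CPM) under FAKi, a ratio of 0.13 (interval 0.10 to 0.17). Cxcl1 gave 2246 UMIs (360 CPM) and 401 UMIs (185 CPM), a ratio of 0.51. With each cell thinned to 3500 UMIs, Cxcl2 was detected in 18.5% of vehicle cells (interval 15.002 to 22.3) and 4.17% of FAKi cells (1.54 to 8.85), so fewer cells had it, against 10.8% and 11.3% of endothelial and immune cells. Cxcl10, an interferon-induced chemokine, stood at 165 and 37.8 CPM (ratio 0.23), and Cxcl16, a scavenger receptor and chemokine, at 253 and 132 CPM (ratio 0.52). Ccl20 gave 34 and 2 UMIs. Ccl2, the monocyte chemokine, was in 3 vehicle cells, 1 of which held 131 of 180 UMIs, and is not read further by itself. Ccl2 and Csf2 (54 and 0 UMIs) had 0 UMIs under FAKi. Without them 15 of 23 genes of the list were lower and 2 higher, with a median of -0.96. The lower genes Cxcl5 (42 and 2 UMIs), Ccl20, Lif (58 and 6), Ccl28 (31 and 7), Vcam1 (118 and 5) and Tnf (166 and 19) stayed in. They too reached the minimum of the filter through the vehicle library alone, as did Cx3cl1 (44 and 15), which was not counted as lower. Leaving out Ccl2 and Csf2 therefore does not remove the effect of the filter.

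The inhibitors that NF-kB induces against itself were lower too. Nfkbia, which encodes the inhibitor IkB-alpha, gave 8274 and 1454 UMIs, or 1324 and 669 CPM (ratio 0.51, interval 0.48 to 0.53), and was detected in 89.6% and 89.7% of cells. Tnfaip3, the A20 enzyme, gave 413 and 36 UMIs, or 66.1 and 16.6 CPM (ratio 0.25, interval 0.17 to 0.35). Of the subunits themselves, Nfkb1 and Relb are in the list and had ratios of 0.93 and 0.94, with intervals that included 1. The others were Nfkb2 (0.75, interval 0.61 to 0.93), Rela (0.65, interval 0.56 to 0.76) and Rel (0.58, interval 0.39 to 0.82). Adhesion molecules for leukocytes were among the lower genes: Icam1 stood at 468 and 254 CPM (ratio 0.54) and Vcam1 gave 118 and 5 UMIs (ratio 0.12, interval 0.04 to 0.29). Tnf gave 166 and 19 UMIs (ratio 0.33), and the TWEAK receptor gene Tnfrsf12a stood at 571 and 279 CPM (ratio 0.49). The 2 members at least 1.5-fold higher were Cxcl12, with 30.2 and 52.0 CPM (ratio 1.72), and the interleukin-1 receptor gene Il1r1, with 18.6 and 39.1 CPM (ratio 2.11).

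Promoter sequences of 4 of these lower genes are shown because each holds the letters of a known NF-kB binding motif. The 250 bases before the start were taken from RefSeq (GRCm38.p6), at chr5:90890995-90891244 on the plus strand for Cxcl1, chr5:90903649-90903898 on the plus strand for Cxcl2, chr10:19015411-19015660 on the minus strand for Tnfaip3 and chr12:55492648-55492897 on the minus strand for Nfkbia. Capitals mark GGGNNTTTCC or its reverse GGAAANNCCC, searched on both strands.
Cxcl1: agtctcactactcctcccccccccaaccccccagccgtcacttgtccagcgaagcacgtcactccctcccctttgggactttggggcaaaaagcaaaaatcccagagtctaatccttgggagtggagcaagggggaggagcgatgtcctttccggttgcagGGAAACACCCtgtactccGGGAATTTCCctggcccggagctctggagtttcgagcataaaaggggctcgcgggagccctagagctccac
Cxcl2: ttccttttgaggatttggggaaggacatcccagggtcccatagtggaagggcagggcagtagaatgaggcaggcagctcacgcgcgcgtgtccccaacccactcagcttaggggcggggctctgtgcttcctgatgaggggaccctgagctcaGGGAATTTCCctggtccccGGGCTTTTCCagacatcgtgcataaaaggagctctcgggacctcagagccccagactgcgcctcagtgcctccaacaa
Tnfaip3: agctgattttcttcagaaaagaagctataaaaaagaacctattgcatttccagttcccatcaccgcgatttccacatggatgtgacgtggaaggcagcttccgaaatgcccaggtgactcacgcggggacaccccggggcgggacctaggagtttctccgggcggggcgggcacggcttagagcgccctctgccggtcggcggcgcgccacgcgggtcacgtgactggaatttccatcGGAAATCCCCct
Nfkbia: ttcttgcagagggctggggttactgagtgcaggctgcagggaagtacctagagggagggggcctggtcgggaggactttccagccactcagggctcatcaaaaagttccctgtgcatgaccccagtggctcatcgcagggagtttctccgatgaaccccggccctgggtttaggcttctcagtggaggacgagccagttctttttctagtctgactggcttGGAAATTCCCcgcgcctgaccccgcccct
Cxcl1 and Cxcl2 lie next to each other on chromosome 5 and each held 2 matches, the nearest 61 and 68 bases before the start. In Tnfaip3 the match ended 2 bases and in Nfkbia 19 bases before the start. Tnfaip3 had 2 promoter windows, and only the 1 shown held a match. Such a match was found in 464 of 32851 windows of this length (1.41%), or in 447 of 27025 genes (1.65%). Of the 17 lower genes of the list, 13 had a promoter in the table and 5 of those held a match, the fifth being Ccl20. Of the 25 genes of the list read here, 18 had a promoter and 6 held a match, the other being Csf1, which was not past 1.5-fold. A match describes these letters and not a bound site.

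Over all genes ranked, the 10 with the lowest ratio of FAKi over vehicle in ductal cells were Cxcl2, Vcam1, Mmp7, Gm20186, Sncg, Fosl1, Plaur, Cxcl10, Ccrl2 and Stx11, of which Cxcl2, Vcam1 and Cxcl10 belong to the list above. Plaur, the urokinase receptor, gave 1748 UMIs (280 CPM) under vehicle and 139 UMIs (63.99 CPM) under FAKi, a ratio of 0.23 (interval 0.19 to 0.27). At 3500 UMIs per cell it was detected in 56.7% of vehicle cells (interval 52.0 to 61.3) and 16.0% of FAKi cells (10.4 to 22.996), while in endothelial and immune cells it was detected in 9.36% and 6.48%. Mmp7, a matrix protease of injured ducts, gave 210 and 11 UMIs (ratio 0.15), Sncg, which encodes gamma-synuclein, stood at 369 and 81.0 CPM (ratio 0.22), and the AP-1 factor gene Fosl1 at 73.6 and 15.7 CPM (ratio 0.21). Abundant genes outside this ranking were also lower. S100a6, a calcium-binding protein, stood at 986 and 334 CPM (ratio 0.34), the tight junction gene Cldn4 at 916 and 326 CPM (ratio 0.36) and Ier3, an early response gene, at 1909 and 790 CPM (ratio 0.41). S100a6 and Cldn4 were detected in 84.2% and 77.1% of thinned vehicle cells, and in 47.2% and 50% of thinned FAKi cells.

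Immediate early genes as a list did not stand apart, with 3 of 26 higher, 5 lower and a median of -0.16. Fos stood at 4508 and 5339 CPM (ratio 1.18) and Egr1 at 5008 and 4440 CPM (ratio 0.89), while Junb stood at 6697 and 4453 CPM (ratio 0.67) and Myc at 56.7 and 23.02 CPM (ratio 0.41). The heat shock genes Hspa1a and Hspa1b had ratios of 1.64 and 1.90. Early response genes can be induced by digestion of tissue, and whether the handling of the 2 libraries differed was not tested.

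The genes with the highest ratio included, apart from Ctrc and Iapp, Hist1h1e, Fam71a, Qsox1, Emb, Slc15a2, Trf, Igfbpl1 and Clec2d. Qsox1, an oxidase that makes disulphide bonds in secreted proteins, stood at 42.3 and 109 CPM (ratio 2.57, interval 2.15 to 3.08) and was detected in 29.5% and 60.3% of cells. Slc15a2, a peptide transporter, stood at 27.7 and 70.9 CPM (ratio 2.56, interval 2.05 to 3.20) and was detected in 27.3% and 55.1%. Thinning to 1 depth gave Fam71a a log2 ratio of 0.45 in place of 1.44 and Emb 0.35 in place of 1.33. Trf, the iron carrier transferrin, stood at 14.9 and 38.7 CPM (ratio 2.60). Cp, which encodes the copper protein ceruloplasmin, stood at 320 and 663 CPM (ratio 2.07) and Pigr, the carrier of secreted immunoglobulin, at 47.9 and 114 CPM (ratio 2.38), with 7.47% and 20.1% of thinned cells. Pigr is among the genes that draw the axis described below. Within its ranges Pigr gave 102 and 0 UMIs at the S100a6 end and ratios of 0.50 in the middle and 2.39 at the Cldn10 end.

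Duct transcription factors lay on both sides. Of 19 with at least 20 UMIs, 4 were at least 1.5-fold higher under FAKi and 3 lower, with a median of 0.04. Onecut1 (ratio 1.56), Foxa2 (1.65), Prox1 (1.61) and Nr5a2 (1.55) were the higher ones over all ductal cells, although Prox1 and Onecut1 were below 1.5-fold within each range of the axis described below. Foxa1 (0.41), Elf3 (0.62) and Hes1 (0.63) were the lower ones. Within the ranges (S100a6 end, middle, Cldn10 end), Elf3 had ratios of 0.94, 0.94 and 0.57, Hes1 of 0.86, 0.75 and 0.63 and Foxa1 of 0.54, 0.70 and 0.28. Foxa1 and Foxa2 are closely related pioneer factors of foregut epithelium, and they differed in opposite directions: Foxa1 stood at 95.7 and 39.6 CPM, and Foxa2 at 61.6 and 102 CPM. Sox9 (1.31) lay between. Of 24 channels and transporters, 2 were higher and 5 lower. Cftr, with 134 and 100 UMIs, had a ratio of 2.15 (interval 1.64 to 2.80), the water channel gene Aqp5 one of 1.49 (1.19 to 1.86) and the carbonic anhydrase gene Car4 one of 0.47 (0.38 to 0.58).

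MHC class I genes had 7 of 20 higher and 2 lower, with a median of 0.02. The higher ones included the heavy chains H2-D1, at 581 and 1096 CPM (ratio 1.89, interval 1.79 to 1.99), and H2-K1, at 395 and 639 CPM (ratio 1.62), their light chain B2m, at 291 and 448 CPM (ratio 1.54), and the immunoproteasome subunits Psmb8 (1.64) and Psmb9 (1.99). Irf1 was lower, at 237 and 155 CPM (ratio 0.65). Transcripts of Mki67 were few in ductal cells, with 12 of 6247503 UMIs under vehicle and 11 of 2172064 under FAKi. Such counts do not measure the share of cycling cells. Ccnd1 had a ratio of 1.10. The cell cycle list had 4 of 19 higher and 3 lower.

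Keratins and junctions had 1 of 24 higher (Cldn10) and 2 lower (Cldn4 and Anxa3), and cilium genes 0 of 14 higher. Cldn10 and Anxa3 are among the genes that draw the axis described below. Within its ranges (S100a6 end, middle, Cldn10 end), Cldn10 had ratios of 0.09, 0.70 and 1.29 and Anxa3 of 0.74, 1.05 and 0.64. Matrix genes had 0 of 24 higher and 3 lower, Lama3, Timp1 and Mmp7. Progenitor surface markers had 2 of 17 higher and 2 lower, the latter Cd44 (ratio 0.59) and Dclk1 (0.43). Endoplasmic reticulum genes had 2 of 22 higher and 0 lower, glycolysis and hypoxia genes 2 of 20 higher and 2 lower, and antioxidant genes 0 of 26 higher and 3 lower. Growth factor genes had 1 of 29 higher and 5 lower, among them Id1 and Id3, targets of bone morphogenetic protein signalling, each with a ratio of 0.43. Injury genes had 2 of 17 higher and 5 lower, the latter S100a6, Plaur, Sprr1a, Tagln and Acta2, of which Acta2 came almost wholly from 1 vehicle cell. Mucins and defence genes had 7 of 19 higher and 5 lower, but Muc2, Tff3, Muc6 and Gkn3 among them rested on the 3 cells that stood apart. MHC class II genes had 0 of 6 higher and 3 lower, with a median of -0.63 that was 0.0117 in thinned cells and, within the ranges of the axis described below, -3.57 at the S100a6 end (16 FAKi cells), 0.85 in the middle and 0.23 at the Cldn10 end, with 69.0% of the H2-Aa UMIs in 1 cell. Granule and beta-cell genes had 10 of 22 higher and 0 lower, with a median of 0.46 (1.29 without called doublets) against 0.92 in endothelial and immune cells. Of 7 Reg genes, Reg1 and Reg2 had at least 20 UMIs, and Reg1 stood at 115 and 323 CPM.

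Other classes were set beside ductal cells for the leading genes. Nfkbia had a ratio of 0.49 in beta-cells, 0.52 in endothelial cells, 0.68 in fibroblasts, 0.53 in pericytes and 0.66 in macrophages (0.51 in ductal cells). It had a ratio of 0.57 in alpha-cells, 0.65 in delta-cells, 0.34 in T cells and 1.98 (interval 1.44 to 2.68) in B cells, of which the FAKi library held 9. Ier3 had a ratio of 0.46 in endothelial cells and 0.41 in fibroblasts, and ratios of 0.67 in pericytes, 0.78 in beta-cells, 0.90 in alpha-cells and macrophages, 0.99 in delta-cells and 0.09 in T cells, and it gave 55 and 0 UMIs in B cells. Icam1 had a ratio of 0.48 in endothelial cells, 0.64 in fibroblasts, 0.60 in beta-cells, 0.76 in macrophages, 1.09 in pericytes, 1.68 (interval 0.91 to 3.28) in alpha-cells, 0.23 in delta-cells (22 and 6 UMIs), 0.18 in T cells and 1.01 in B cells. Medians of the cytokine and NF-kB list, over its genes with at least 20 UMIs in a class, were -0.93 in endothelial cells, -0.67 in pericytes, -0.48 in fibroblasts, -0.42 in macrophages and -1.96 in T cells, where the median of all genes was -0.41. They were -0.14 in beta-cells, -0.18 in delta-cells, 0.28 in alpha-cells and, over 6 genes, 0.59 in B cells. S100a6 had a ratio of 1.01 in endothelial cells, 0.81 in fibroblasts, 1.29 in macrophages, 0.66 in pericytes and 0.86 in beta-cells, and lower ones of 0.39 in delta-cells (32 and 15 UMIs), 0.07 in T cells and 0.04 in B cells. Cldn4 had a ratio of 1.21 in beta-cells, 1.01 in alpha-cells, 0.77 in endothelial cells, 0.47 in delta-cells and 0.02 in T cells, the last with 1 FAKi UMI. In the 2 acinar clusters Nfkbia had ratios of 0.47 and 0.76, and Ier3 had 0.45 in the second. Cxcl10 had ratios of 0.30 in endothelial cells and delta-cells, 0.53 in pericytes, 0.59 in T cells, 0.70 in fibroblasts, 0.75 in alpha-cells, 1.01 in macrophages and 1.53 in beta-cells. Cxcl2 had ratios of 0.84 in macrophages, 0.79 in endothelial cells, 0.32 in beta-cells and 0.30 in T cells, and Plaur 0.83 in macrophages, 0.66 in endothelial cells and 0.52 in fibroblasts, with 38 and 0 UMIs in T cells and 61 and 1 in B cells. H2-D1 was higher in fibroblasts (1.91), pericytes (1.67), endothelial cells (1.37), B cells (1.38), alpha-cells (1.24), delta-cells (1.30), beta-cells (1.16) and the acinar clusters (1.14 and 1.59), and had ratios of 0.96 in macrophages and 0.30 in T cells. The T cell class held 168 vehicle and 28 FAKi cells. Under vehicle it had the highest level after ductal cells of Spp1 (595 CPM), Krt19 (178 CPM) and Sox9 (45.6 CPM). Its median over 10 duct and foregut transcription factors was -1.53. The ratios of this class are therefore not read as a change within T cells, and the part of duct transcripts in them was not tested. Each class compares the same pair of libraries, and no difference between classes was tested.

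**Figure D4:**
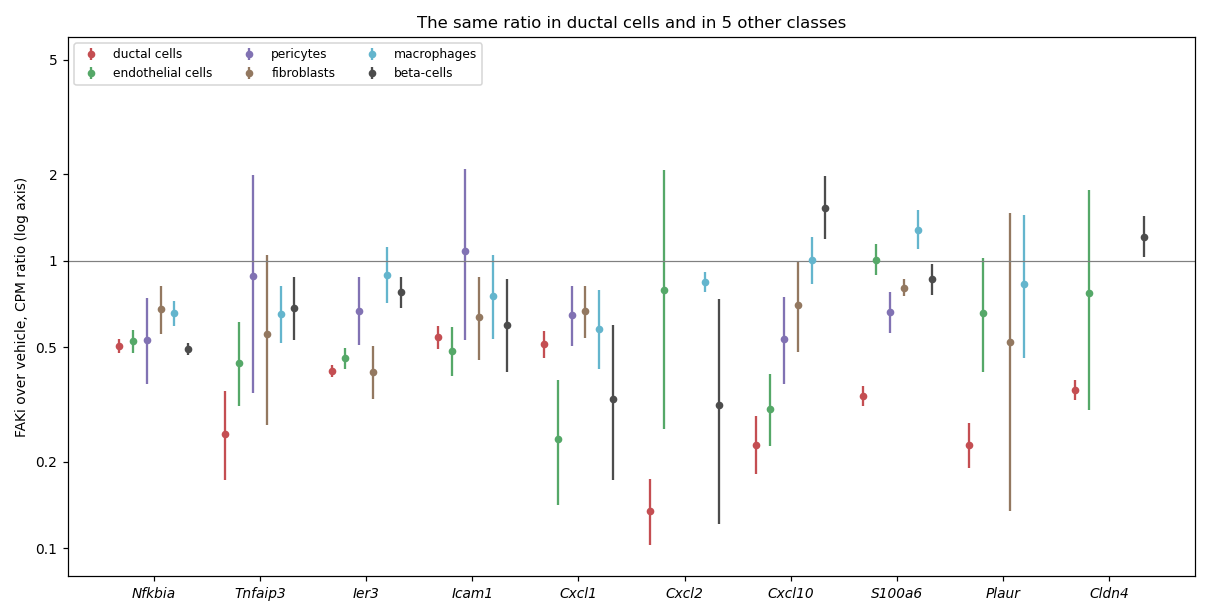
FAKi over vehicle for leading genes in ductal cells and in other classes, as ratios of CPM on a log axis with 95% counting intervals. Nfkbia lay between 0.49 and 0.68 in beta-cells, endothelial cells, fibroblasts, pericytes and macrophages, and S100a6 lay at 0.34 in ductal cells and from 0.66 to 1.29 in these classes. Alpha-cells, delta-cells, T cells and B cells are not drawn.

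Ductal cells also varied among themselves. A principal component drawn on the 498 vehicle cells, with 3562 duct-enriched genes and without the NF-kB, immediate early and injury lists, ran from cells with more Msln, Krt19, Krt7, Sfn, Crip1 and Anxa3 to cells with more Cldn10, Cbs, Cp, Prox1, Tesc and Spp1. It was the third component, held 1.16% of the variance and correlated weakly with log depth over cells (r = 0.16 in vehicle cells). It was chosen after the data were seen, and the cells form a continuum, so the 3 equal parts into which the vehicle cells were divided are ranges and not types. The end with Krt19 is called the S100a6 end, although S100a6 was not used to draw it: S100a6 stood at 1559 CPM there and at 587 CPM at the Cldn10 end under vehicle. Between these ends of the vehicle cells, Cldn10, a claudin that forms ion-selective pores, stood at 58.2 and 321 CPM, Cftr at 10.3 and 37.0 CPM (ratio 3.60, interval 2.16 to 6.35), Spp1 at 6940 and 15449 CPM, Krt19 at 2476 and 897 CPM and Msln at 378 and 37.4 CPM. Sox9 differed less, with 469 and 577 CPM. Cldn10, Spp1, Krt19 and Msln are among the genes with the largest weights on the component, so their differences between the ends describe the split.

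FAKi cells placed on this axis lay mostly toward the Cldn10 end. Of the 156 cells, 16 (10.3%, interval 5.98 to 16.1) fell in the range of the S100a6 end, 40 (25.6%) in the middle and 100 (64.1%, interval 56.0 to 71.6) at the Cldn10 end, where 166 vehicle cells lay in each by construction. The FAKi cells were placed by a score that uses Krt19 and Msln, so their levels at the ends only describe the placement: Krt19 stood at 2743 CPM at the S100a6 end and 757 CPM at the Cldn10 end, and Msln at 454 and 47.9 CPM. Fewer cells of 1 range and a shift of all cells along the axis cannot be told apart with 1 library per condition.

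**Figure D5:**
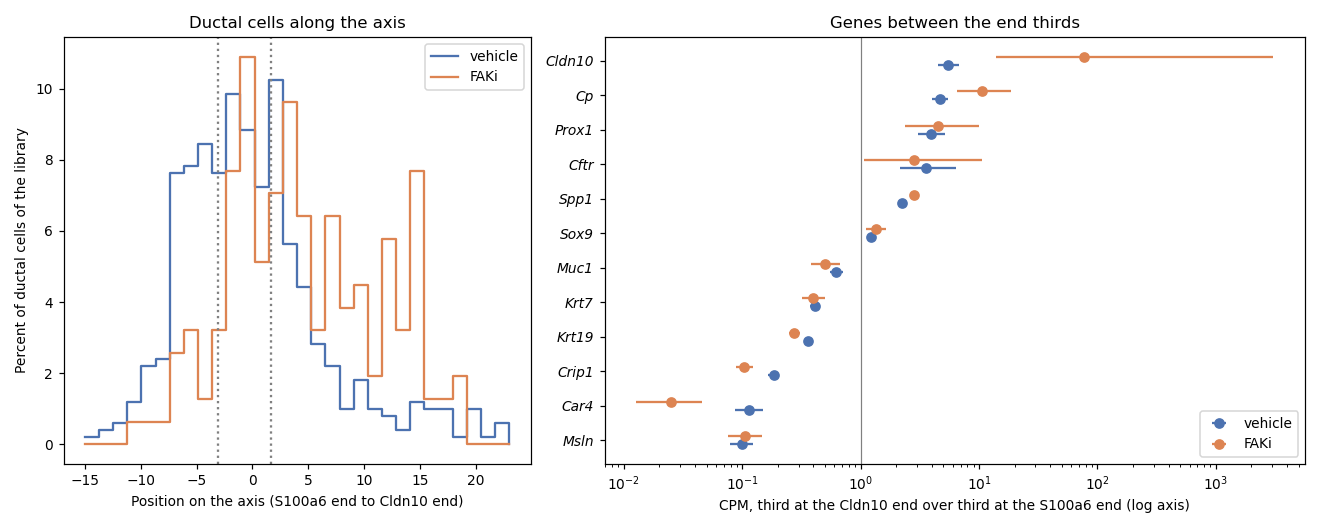
Position of ductal cells along the axis drawn in vehicle cells, by library, and ratios of the Cldn10 end over the S100a6 end for single genes on a log axis with 95% counting intervals. The Cldn10 end held 64.1% of the FAKi cells and, by construction, 33.3% of the vehicle cells. Ratios of genes that draw the axis describe the placement of the cells.

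Within each range the cytokine and NF-kB list remained lower in FAKi cells, with medians of -1.10 at the S100a6 end, -0.95 in the middle and -0.99 at the Cldn10 end, where 19, 18 and 18 of 25 genes were at least 1.5-fold lower. Over all 12058 genes, 29.2%, 18.7% and 11.7% were that much lower in these ranges, with medians of -0.07, -0.05 and -0.00458. The S100a6 end holds only 16 FAKi cells, and other lists lay lower there too, with 16 of 32 focal adhesion and integrin genes (median -0.57) and 17 of 22 granule and beta-cell genes. Plaur had ratios of 0.40, 0.27 and 0.24 and Cldn4 of 0.36, 0.47 and 0.33 in the same order. H2-D1 had ratios of 1.63, 2.26 and 1.70. Other genes changed in size or direction within the ranges. S100a6, at 0.34 over all ductal cells, had ratios of 0.56, 0.56 and 0.31, and Car4, at 0.47 over all, had 1.64, 0.47 and 0.36. Cp, at 2.07 over all, had 0.72, 1.20 and 1.63, Prox1, at 1.61, had 1.14, 0.94 and 1.31, and Onecut1, at 1.56, had 1.13, 1.17 and 1.49. Foxa2 had ratios of 1.52, 1.00 and 1.68, and Nr5a2 had 1.56 (5 FAKi UMIs), 1.24 and 1.12. Cp and Prox1 were among the genes that draw the axis.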

How the data were processed

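Islet cells were profiled by droplet-based 3' single-cell RNA sequencing, and the authors deposited raw UMI counts of 19945 genes per cell, a cluster and cell type for each cell, and a mitochondrial percent per cell, by which the authors had removed the cells with high values in Seurat. Per the submitters' processing notes, Seurat 3.1 and the mm10 genome were used. Ductal cells were taken from the deposited annotation, and vehicle cells are those named Control there. UMIs were summed per class and library and divided by the total (CPM). Levels carry exact Poisson intervals, ratios exact conditional binomial intervals and shares Clopper-Pearson intervals, at 95%. No test was made, since each condition had 1 library. Log2 ratios carry a pseudocount of 1 CPM. Lists used genes with at least 20 UMIs in ductal cells, and ranked genes at least 100 UMIs, an interval excluding 1 and no cell with over 20% of the UMIs. Named were the 15 genes highest in ductal cells, the 10 highest and 10 lowest of FAKi over vehicle, and members of 26 fixed lists. The class, its markers and the lists were chosen with earlier results of these data known, and Cp, the genes of the axis and the cells that stood apart were named after their values were seen. Doublets were called with scrublet in each library and kept in the results unless stated. The intervals were tested on simulated counts. For shares of cells, each cell was thinned to 3500 UMIs (seed 0), which kept 455 vehicle and 144 FAKi ductal cells and left out 43 and 12. Alternatives were other scales, cell filters, pseudocounts and UMI minimums. The axis and its ranges were added after the data were seen. Of the gene names, 23 had become dates and none is reported. A few genes picked by these rules are not reported here. Genes of the lists that the count table lacks were not analysed here. Software versions were scanpy 1.11.5, scipy 1.17.1, numpy 2.4.6, matplotlib 3.10.9 and pandas 2.3.3, run in python 3.11.15.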

Additional observations from a re-analysis of the deposited data

How the results depend on the processing

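No paired analysis was possible because each condition had 1 library and lanes are not replicates. Of 313 values of list medians under the alternatives, 295 moved by no more than the tolerance (the 95% counting interval's arm on the log2 scale, for a list the median over its genes), 17 moved and 1 reversed, and of 477 values of named genes, 414 stayed within it, 63 moved and 0 reversed. A sign change was counted as a reversal only where the value itself was past 1.5-fold. Over the alternatives in these counts, hormones ranged most of the lists, with medians of 0.29 (mean of CPM over cells), 1.93 (no called doublets), 0.68 (under 5% mitochondrial counts), 0.31 (thinned cells), 0.71 (without the 50 vehicle and 16 FAKi cells richest in hormones and enzymes), 1.15 (without the cells that stood apart), -0.18 (pseudocount 10 CPM), -0.85 (at least 100 UMIs) and 0.55 (at least 1 UMI), so their sign changed in 2 of these. Granule genes gave 1.29 without doublets. Acinar genes gave 1.16 as the mean over cells, 1.19 without doublets and 0.64 without those richest cells, and immediate early genes -0.0796 as the mean over cells and -0.0649 at the S100a6 end. MHC class I gave 0.42 in thinned cells and 0.46 at the S100a6 end, and MHC class II, at -0.63, reversed to 0.0117 in thinned cells. The ranges of the axis were alternatives for 4 lists and are not in these counts for others: there MHC class II gave -3.57, 0.85 and 0.23 and hormones -0.62, 0.03 and 1.00 (S100a6 end, middle, Cldn10 end), with further changes of sign. The 6 duct markers over other cells, at 6.23 and 6.67 (vehicle, then FAKi), gave 5.597 and 6.13 as the mean over cells, 5.82 and 6.24 without the 20 most abundant genes, 6.01 and 6.38 in thinned cells, and 6.42 under FAKi below 5% mitochondrial counts. Hormones and islet factors over endothelial and immune cells, at -0.36 and -1.40, gave 0.47 and -0.57 as the mean over cells, 0.16 and -0.81 in thinned cells, -2.47 and -2.60 without those richest cells, and, under vehicle, -1.07 without doublets and -0.997 below 5% mitochondrial counts. The numbers of genes past 1.5-fold were 534 higher and 634 lower at a minimum of 50 UMIs, and 119 and 254 at 200 UMIs. The ranges of the axis and the cells that stood apart were chosen after seeing the data. With 156 FAKi ductal cells, genes under about 20 UMIs were too shallow to compare, and the cause of each shift was not tested.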

Other observations

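In the FAKi library, 2 ductal cells without a UMI of Spp1 or Sox9 held 1773 and 483 UMIs of the trypsinogen gene Try5 and 844 and 121 UMIs of Nupr1, a stress-induced nuclear protein gene, with 25 and 5 UMIs of Krt19. A single vehicle ductal cell held 284 UMIs of Acta2 and 207 of Tagln, genes of smooth muscle, beside 120 UMIs of Krt19. Mki67, a marker of cycling cells, was detected in 8 ductal cells of both libraries together, and 1 FAKi cell held 7 of its UMIs.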
